A study of Mus musculus with 6 samples.

Results

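The genes described here encode fibronectin, matricellular proteins and proteins of the elastic fibre. They were chosen by symbol as Fn1, the matricellular genes Tnc, Thbs1, Thbs2, Postn and Sparc, and the elastic fibre genes Eln, Fbn1, Fbln2 and Efemp2, and all 10 were found among the 16880 genes of the deposited table. RNA had been sequenced from ATDC5 cells, a mouse chondrogenic cell line, kept in medium with serum and given 10 ng/mL IL-1β alone (3 libraries) or 10 ng/mL IL-1β together with 10 μmol/L NP-G2-044 (3 libraries), for 24 h by the study's methods. NP-G2-044 inhibits FSCN1, a protein that bundles actin filaments. The sample titles name NP-G2-044 and the treatment label of the same samples names NP-G2-047, and the methods speak of chondrocytes where the labels name the cell line. Both groups had received IL-1β, an inflammatory cytokine, so that each comparison concerns the inhibitor on top of IL-1β, and a group without IL-1β was not analysed here. The labels do not say whether the 3 libraries of a group came from separate cultures; the methods call them biological replicates. P-values measure only the spread between these libraries.

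Fibronectin is a secreted glycoprotein that cells draw out into fibrils by pulling on it through integrins, which link it to the actin cytoskeleton. Matricellular proteins such as the thrombospondins, tenascin-C, periostin and SPARC are secreted into the matrix and act mainly by binding receptors, growth factors, proteases and collagens rather than by carrying load. Elastic fibres consist of an elastin core laid down on microfibrils of fibrillin, with fibulins and lysyl oxidases helping to assemble and crosslink them. In cartilage these proteins lie around the chondrocytes and between the collagen fibrils, and fibronectin and several matricellular proteins are known to accumulate in osteoarthritic tissue.

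With NP-G2-044, 8 of the 10 genes fell, Fn1 rose slightly and Eln was almost undetected in both groups. The 5 matricellular genes all fell past a log2 fold change of 1 in size, from 25.0-fold for Thbs1 to 2.12-fold for Postn. The elastic fibre genes Efemp2, Fbln2 and Fbn1 fell by smaller amounts, 1.85-fold to 1.33-fold. Fn1, the most abundant of the 10 in both groups, was 1.18-fold higher. Changes were tested in edgeR's quasi-likelihood framework over 11983 genes, and a positive log2 fold change means a higher level with the inhibitor.

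The filter on low counts was passed by 9 of the 10 genes, and all 9 had a Benjamini-Hochberg adjusted p below 0.05 in edgeR, 8 lower and 1 higher. That threshold alone was passed by 80% of all genes tested, 39.8% lower and 40.2% higher, so passing it does not set these genes apart. The cutoffs stated by the study, which add a log2 fold change above 1 in size, were passed by 5 of the 9, all lower, against 16.6% of all genes tested in either direction and 10.1% toward lower levels. The median log2 fold change was −1.09 over the 9 genes and 0.00 over all genes tested. In CPM the 2 groups did not overlap for any of the 9, and they did not for 80.8% of all genes tested, 40.1% with the inhibitor lower and 40.7% with it higher. Fewer cells that make these RNAs and less RNA per cell cannot be told apart in bulk libraries.

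**Figure D1:**
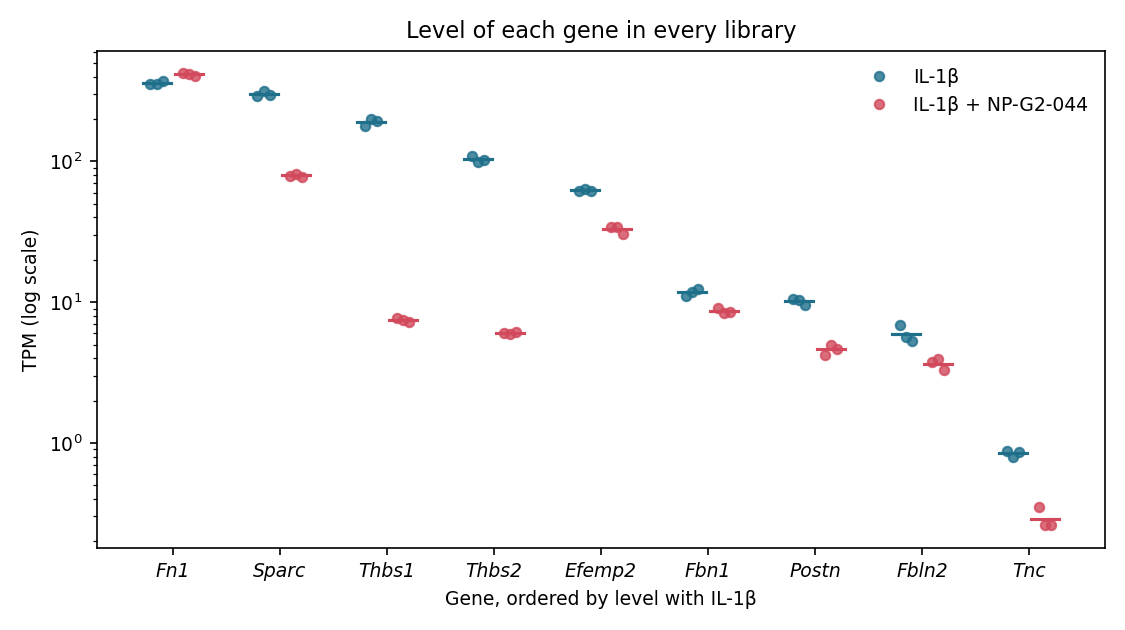
TPM, a level scaled to gene length and library size, of 9 genes on a logarithmic vertical axis, ordered along the horizontal axis by their level with IL-1β. Points are libraries, 3 per group, and short lines are group means. The groups are apart for every gene plotted, and Thbs1 and Thbs2 drop from between Sparc and Efemp2 to below Fbn1. Eln, with 0 to 1 read per library, is left out.

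Because the 5 matricellular genes moved together, the promoters of 4 of them are shown. RefSeq promoter sequences (GRCm38.p6, the assembly called mm10 in the submitters' processing notes) were matched for 7 of the 10 genes, at 11 starts, and those of Fn1, Thbs1 and Eln were not used here. Each line gives the 250 bases before the start, 5′ to 3′ on the strand of the gene, at the start nearest to that in GENCODE. Capitals mark matches on either strand to 6 motifs, namely a TATA box (TATAAA), a GC box (GGGCGG), a CRE (TGACGTCA), an AP-1 site (TGANTCA), a TEAD site (GGAATG) and the CArG box that SRF binds.
Thbs2, chr17:14694263-14694512, minus strand: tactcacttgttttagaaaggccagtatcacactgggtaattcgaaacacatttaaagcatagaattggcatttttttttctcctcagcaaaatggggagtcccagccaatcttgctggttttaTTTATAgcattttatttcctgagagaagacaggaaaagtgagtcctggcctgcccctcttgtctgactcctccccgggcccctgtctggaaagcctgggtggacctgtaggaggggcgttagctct
Sparc, chr11:55420081-55420330, minus strand: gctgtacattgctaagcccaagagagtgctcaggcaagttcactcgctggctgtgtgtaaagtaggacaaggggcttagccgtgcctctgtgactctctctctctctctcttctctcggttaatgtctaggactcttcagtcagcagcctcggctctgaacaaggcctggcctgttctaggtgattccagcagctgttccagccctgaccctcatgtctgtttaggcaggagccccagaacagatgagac
Postn, chr3:54360857-54361106, plus strand: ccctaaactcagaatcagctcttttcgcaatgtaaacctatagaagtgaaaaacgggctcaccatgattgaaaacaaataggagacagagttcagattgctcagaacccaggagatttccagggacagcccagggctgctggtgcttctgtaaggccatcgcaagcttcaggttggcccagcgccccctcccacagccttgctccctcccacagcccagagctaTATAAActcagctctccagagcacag
Tnc, chr4:64047016-64047265, minus strand: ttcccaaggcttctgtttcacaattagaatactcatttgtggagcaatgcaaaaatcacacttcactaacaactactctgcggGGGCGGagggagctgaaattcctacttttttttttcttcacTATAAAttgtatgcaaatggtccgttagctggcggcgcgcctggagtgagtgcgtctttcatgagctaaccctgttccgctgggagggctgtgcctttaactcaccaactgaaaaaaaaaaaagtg

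Postn carried TATAAA at positions −26 to −21 counted from its start, the usual place of a TATA box. Tnc carried TATAAA at −126 to −121 and GGGCGG at −167 to −162, and Thbs2 had TATAAA on the other strand, printed as TTTATA, at −126 to −121. Only the exact letters were searched. The tatataag near the end of the window of the other Tnc start, which is not shown, was thus not counted. None of the 6 motifs matched in the Sparc window, and none of the matches in these 4 windows overlapped another. The same 250 bases were searched at all 11 starts, at all 32851 RefSeq starts and at the 12355 starts of tested genes. TATAAA was found at 4 of the 11, against 12.4% of all starts and 6.35% of those of tested genes. GGGCGG was found at 7 of the 11, against 32.7% and 57.8%, so that its share was near that of the tested genes. The other 4 motifs were found at none of the 11. The CRE was held by 1.55% of all windows and 2.61% of those of tested genes, the AP-1 site by 6.75% and 4.44%, the TEAD site by 12.6% and 10.5%, and the CArG box by 1.47% and 1.13%. The windows of Tnc and some of those of Efemp2 overlap. The same TATAAA and GGGCGG of Tnc, and the same GGGCGG of Efemp2, were thus counted again at each start that held them. The RefSeq start of Sparc lies inside the gene as GENCODE draws it, and matches of short motifs are a description of the sequence only.

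Library totals lay between 16615831 and 16878162 reads with IL-1β and between 17529836 and 17735850 with the inhibitor, and no library stood apart, with 2 libraries of a group differing by 1.54 to 2.39 times the variance of random sampling. Fscn1, which encodes the target of the inhibitor, was at 616.2 ± 9.47 TPM against 252.4 ± 2.47 TPM (SD, n = 3 each). Among chondrocyte markers, Col2a1 summed to 32 reads with IL-1β and 6 with the inhibitor, and Matn1 had none. Sox9 was at 6.44 and 11.4 TPM, and Sox5 went the other way, from 10.3 to 2.27 TPM. Of 10 chondrocyte markers 7 had a row, their summed level running from 16.7 to 17.9 TPM with IL-1β and from 13.5 to 14.4 TPM with the inhibitor. Markers of other cells moved with the groups too. The summed fibroblast list, 8 of 8 genes listed, went from 1106–1151 TPM to 337–350.9 TPM, almost all of it Col1a2. Col1a1, Col3a1 and Dcn were lower with the inhibitor too, while Pdgfra was higher, at 2.36 against 8.69 TPM, with Thy1 at 0 in all libraries and Lum and Fap at 0 to 3 reads per group. The osteoblast list, with 4 of 6 genes listed, went from 23.4–25.9 to 12.4–13.6 TPM. The myeloid list, with 5 of 6 listed, went from 11.3–14.4 to 124.1–134.9 TPM, nearly all of it the lysosomal gene Cd68, while Ptprc had no read in any library and Itgam had 2 reads in all. The adipocyte list, with 4 of 5 listed, went from 4.87–7.53 to 0.48–0.91 TPM, with Adipoq at 2 reads per group. The endothelial, skeletal muscle and epithelial lists summed to at most 1.35 TPM in any library. The part of these shifts in the results on matrix genes was not tested.

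Fn1 (Entrez gene 14268, chr1:71585520-71653200, minus strand in GENCODE on GRCm38) encodes fibronectin. It measured 355.96, 352.55 and 373.01 TPM in the IL-1β libraries and 423.06, 421.0 and 405.82 TPM in the libraries with NP-G2-044. Every library with the inhibitor was above every library without it, and the groups were separated by more than their spread, 360.5 ± 11.0 TPM against 416.6 ± 9.42 TPM (SD, n = 3 each). The log2 fold change was 0.24 (standard error 0.0266, edgeR adjusted p = 1.49e-11). The reads counted were 30191, 28996 and 31363 against 37387, 38069 and 36747, so that counting error is negligible here, and Fn1 alone took 0.174% to 0.186% of all reads with IL-1β and 0.208% to 0.215% with the inhibitor. Its rank by mean TPM among all genes listed moved from 351 to 266. The change was well inside the cutoff on fold size. The deposited values are per gene, so the splice forms of fibronectin, such as those with the extra domains, could not be separated. GENCODE places an antisense gene over 292 bases of the Fn1 exons, and whether the counting used strand is not stated in the sources used here.

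**Figure D2:**
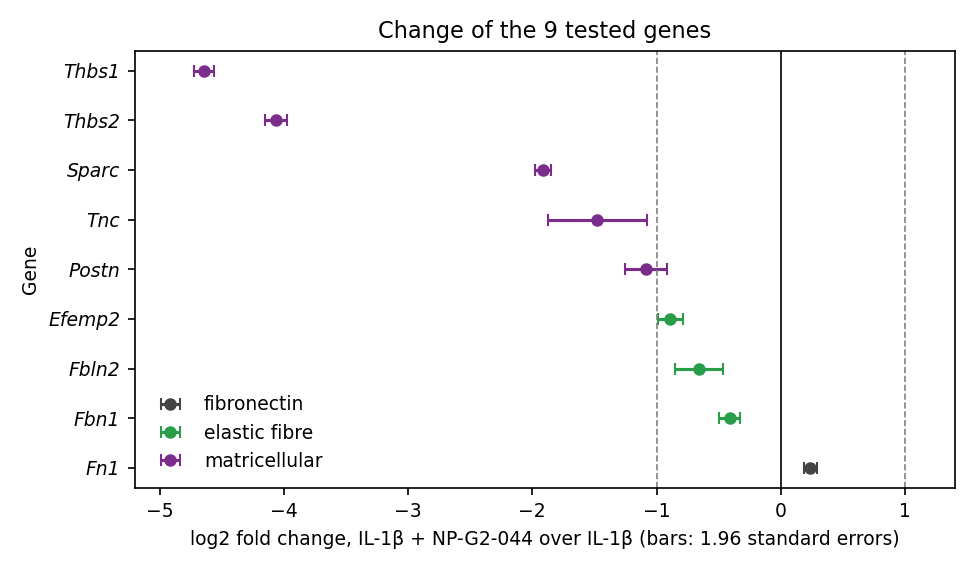
Horizontal axis, log2 fold change for the 9 tested genes, positive where the inhibitor group was higher, with 95% intervals from the standard error as bars. Dashed lines mark a log2 fold change of 1 in either direction. The matricellular genes (purple) lie beyond −1, although the bar of Postn crosses it, the elastic fibre genes (green) lie between −1 and 0, and Fn1 lies at 0.24.

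Thbs1 and Thbs2 encode thrombospondin-1 and thrombospondin-2, trimeric glycoproteins that bind CD47, CD36 and integrins, and of which thrombospondin-1 is also known as an activator of latent TGF-β. They showed the largest falls of the 10 genes. Thbs1 (Entrez gene 21825, chr2:118111876-118127133) measured 177.37, 199.85 and 195.44 TPM with IL-1β and 7.67, 7.53 and 7.2 TPM with NP-G2-044. The reads went from 10617, 11610 and 11606 to 480, 482 and 462. All libraries with the inhibitor were thus near a common low level, and the log2 fold change was −4.64 (standard error 0.041, edgeR adjusted p = 4.67e-52), the 57th lowest of the 11983 genes tested. Thbs2 (Entrez gene 21826, chr17:14665500-14694235) measured 108.77, 99.27 and 102.19 TPM with IL-1β and 6.0, 5.96 and 6.18 TPM with the inhibitor. The 2 groups were again far apart, with a log2 fold change of −4.06 (standard error 0.0447, edgeR adjusted p = 8.89e-43), or 16.7-fold.

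The levels of the paralogues were also set against each other. In TPM, Thbs1 was 1.63, 2.01 and 1.91 times Thbs2 in the IL-1β libraries and 1.28, 1.26 and 1.17 times in the libraries with NP-G2-044. The ratio was lower in all 3 libraries with the inhibitor, with p = 0.1 in a two-sided exact permutation test, the smallest p that 3 libraries against 3 can give. By rank of mean TPM, Thbs1 moved from 734 to 8727 and Thbs2 from 1458 to 9067 of the 16880 genes listed. Exons of Thbs1 share 208 bases with a lincRNA of the other strand, and those of Thbs2 overlap no other gene in GENCODE.

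Sparc encodes osteonectin, a collagen-binding glycoprotein that acts as an extracellular collagen chaperone. Sparc (Entrez gene 20692, chr11:55394500-55423183) was the second most abundant of the 10 genes in both groups. It measured 293.21, 317.74 and 294.82 TPM with IL-1β and 79.27, 82.15 and 77.72 TPM with NP-G2-044, from 6279 to 6609 reads against 1741 to 1861. The groups did not overlap and the log2 fold change was −1.91 (standard error 0.0326, edgeR adjusted p = 5.56e-46). Fn1 had been 1.11 to 1.27 times Sparc in TPM with IL-1β and was 5.13 to 5.34 times Sparc with the inhibitor.

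Tnc encodes tenascin-C, a six-armed glycoprotein of embryonic and injured tissue that modulates adhesion to fibronectin, and Postn encodes periostin, which binds collagen, fibronectin and tenascin-C and promotes collagen crosslinking. Tnc (Entrez gene 21923, chr4:63959785-64047015) was low in all libraries, at 0.87, 0.8 and 0.86 TPM with IL-1β and 0.35, 0.26 and 0.26 TPM with NP-G2-044. These levels rest on 56, 50 and 59 reads against 24, 18 and 20. Scaled by total reads, its pooled reads with IL-1β were 2.80 times those with the inhibitor, and the exact 95% binomial interval of this ratio (Clopper-Pearson, counting error only) ran from 2.08 to 3.81. The groups did not overlap, with a log2 fold change of −1.48 (standard error 0.203, edgeR adjusted p = 4.71e-09). On log2(TPM + 1), where so low a gene is compressed, limma gave −0.52, and the gene was removed when 10 CPM or more was required in 3 libraries. Exons of Tnc share 176 bases with a processed transcript of the opposite strand in GENCODE, which was not analysed here.

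Postn (Entrez gene 50706, chr3:54361109-54391037) measured 10.53, 10.33 and 9.57 TPM with IL-1β and 4.22, 5.0 and 4.67 TPM with the inhibitor, from 306 to 337 reads against 143 to 170. The groups were apart and the log2 fold change was −1.08 (standard error 0.0854, edgeR adjusted p = 9.87e-17). Its size was close to the cutoff of 1. With limma on log2(TPM + 1) it was −0.99 and so inside the cutoff, and when edgeR was asked whether the change exceeded a fold of 2 the adjusted p was 0.406.

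The elastic fibre genes fell less far or were barely detected. Efemp2 encodes fibulin-4, which brings lysyl oxidase to tropoelastin and is needed for elastic fibres to form. Efemp2 (Entrez gene 58859, chr19:5473954-5482517) measured 61.87, 63.47 and 61.43 TPM with IL-1β and 34.12, 34.1 and 30.56 TPM with NP-G2-044. The groups were apart by far more than their spread, and the log2 fold change was −0.89 (standard error 0.0509, edgeR adjusted p = 3.2e-22), inside the cutoff of 1. Its exons share 173 bases with Mus81 on the opposite strand, named here for this overlap. Mus81 had 906 reads with IL-1β and 1497 with the inhibitor, summed over the 3 libraries, against 2676 and 1519 for Efemp2. The share of reads that could have been assigned to the wrong one of the pair was not tested.

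Fbn1 encodes fibrillin-1, the main subunit of microfibrils, which also holds latent TGF-β complexes in the matrix. Fbn1 (Entrez gene 14118, chr2:125300594-125507993) measured 11.12, 11.8 and 12.5 TPM with IL-1β and 9.11, 8.43 and 8.48 TPM with the inhibitor. The lower value was seen in all 3 libraries with the inhibitor, and at −0.41 (standard error 0.0437, edgeR adjusted p = 3.26e-12) this was the smallest log2 change among the 8 genes that fell. A predicted protein-coding gene on the opposite strand shares 2442 bases of the Fbn1 exons and was not analysed here.

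Fbln2 encodes fibulin-2, which binds fibronectin, fibrillin and tropoelastin. Fbln2 (Entrez gene 14115, chr6:91212455-91272540) measured 6.9, 5.62 and 5.26 TPM with IL-1β and 3.73, 3.93 and 3.3 TPM with NP-G2-044. The IL-1β libraries differed more for this gene than for any other tested gene of the 10 in that group, with a coefficient of variation of 14.5%, and still did not overlap with the other group. The log2 fold change was −0.66 (standard error 0.0979, edgeR adjusted p = 1.14e-07).

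Eln encodes tropoelastin, the monomer of the elastin core. Eln (Entrez gene 13717, chr5:134702593-134747323) had 0, 0 and 0 reads with IL-1β and 1, 0 and 1 reads with NP-G2-044, and was not tested. A count of 0 over the IL-1β libraries allows up to 0.0597 CPM (3 reads over the group), and the 2 reads with the inhibitor amount to 0.0378 CPM, so a difference was not detectable at this depth. RNA of Fbn1, Fbln2 and Efemp2 was thus present in libraries in which elastin RNA itself was at or below the floor.

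**Figure D3:**
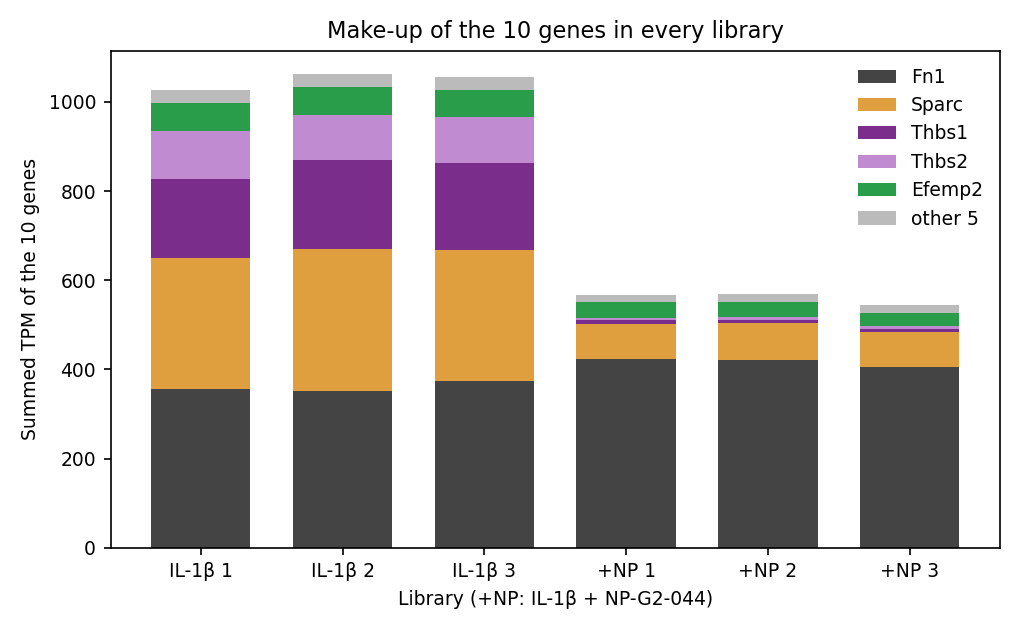
Summed TPM of the 10 genes in every library, stacked by gene, with the vertical axis starting at 0. The other 5 are Fbn1, Postn, Fbln2, Tnc and Eln. The bars are 1027 to 1061 TPM high with IL-1β and 544.2 to 568.4 TPM with NP-G2-044, and the dark Fn1 part takes 33.2% to 35.4% of the first and 74.1% to 74.6% of the second.

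Seen together, the 10 genes shrank in sum and came to be dominated by Fn1. Their summed level was 1048 ± 18.2 TPM with IL-1β and 560.1 ± 13.8 TPM with NP-G2-044 (SD, n = 3 each), and without Fn1 it was 687.2 ± 19.7 TPM and 143.4 ± 4.59 TPM. The share of Fn1 in the sum went from 34.4% ± 1.09 to 74.4% ± 0.28, and that of Thbs1 from 18.2% ± 0.82 to 1.33% ± 0.0156 (SD, n = 3 each). Sparc went from 28.8% ± 1.02 to 14.2% ± 0.243 of the sum, and Thbs2 from 9.88% ± 0.646 to 1.08% ± 0.0481. No test was made of the sum or of its shares.

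The order of levels changed accordingly. With IL-1β it ran, in TPM, Fn1, Sparc, Thbs1, Thbs2, Efemp2, Fbn1, Postn, Fbln2, Tnc and Eln. With NP-G2-044 it ran Fn1, Sparc, Efemp2, Fbn1, Thbs1, Thbs2, Postn, Fbln2, Tnc and Eln, so that both thrombospondin genes had dropped behind Efemp2 and Fbn1 and the rest kept their order. No neighbours in either order had overlapping ranges over the 3 libraries. Among the nearer pairs were Fbn1 and Postn with IL-1β, at 11.12 to 12.5 and 9.57 to 10.53 TPM, and Fbln2 and Postn with the inhibitor, at 3.3 to 3.93 and 4.22 to 5.0 TPM.

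The genes whose profiles were most like those of the extremes were looked up among all tested genes, by the Euclidean distance of log2 CPM centred on each gene's mean over the 6 libraries. For Fn1, both the most abundant and the only one to rise, the nearest were Strn4 (distance 0.0343), Slc25a1 (0.0382) and Shoc2 (0.0395), with log2 fold changes of 0.23, 0.23 and 0.21. For Thbs1 the nearest were C1s1 (distance 0.251), Slc1a3 (0.261) and Tgfbi (0.363), with log2 fold changes of −4.64, −4.63 and −4.65. Since the 6 libraries form 2 groups, the measure mostly reflects the fold change.

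Relatives of these genes were taken from 3 lists, 21 other matricellular genes, 17 other elastic fibre genes and 14 cell-surface receptors of these proteins. Of these 52 genes 49 had a row and 35 were tested, of which 17 fell and 4 rose past both cutoffs, against 10.1% and 6.48% of all genes tested. The lists were chosen with earlier results of these data known, so these counts only describe the genes listed. In the paragraphs that follow, genes that were not tested, or that passed neither or only the first cutoff, are named after their values were seen, apart from the 2 most abundant of each list.

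Among the other matricellular genes 20 were listed and 16 tested. Of these, 10 fell and 1 rose past both cutoffs, against 10.1% and 6.48% of all genes tested. The median of their log2 fold changes was −1.93. The most abundant were Fstl1, a secreted SPARC-family glycoprotein, at 173 ± 1.29 TPM with IL-1β against 55.5 ± 1.25 TPM for NP-G2-044 (SD, n = 3 each), and Smoc2, a SPARC-related calcium-binding protein, at 137.1 ± 1.06 and 36.99 ± 0.166 TPM. Their log2 fold changes were −1.61 and −1.86. Larger falls were those of Smoc1, from 59.3 to 4.67 TPM (log2 fold change −3.63), of Spp1, which encodes osteopontin, from 90.8 to 6.76 TPM (−3.72), and of Tgfbi, a TGF-β-induced relative of periostin, from 65.1 to 2.54 TPM (−4.65). Tnn, or tenascin-N, went from 7.54 to 1.01 TPM (−2.87). The low-count falls were those of Tnxb, with 70 reads against 5 over the groups (−3.78), Ccn2, the connective tissue growth factor gene, with 111 against 29 (−1.99), and Ccn6, with 41 against 9 (−2.21). The calls of Tnxb, Ccn2 and Ccn6 were lost with limma on log2(TPM + 1), and when 10 CPM or more was required in 3 libraries, as was that of Ccn5 under the latter. Ccn5 had 124 reads against 2, a pooled ratio of 65.2 with an exact 95% binomial interval (counting error only) from 17.7 to 544.8.

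Ccn4 was the matricellular gene that rose past both cutoffs, from 6.13 ± 0.482 to 14.8 ± 0.325 TPM (SD, n = 3 each), or on the log2 scale 1.30 (standard error 0.0589, edgeR adjusted p = 1.17e-26). Ccn3 passed the first cutoff alone at 0.53 and Thbs3, a pentameric thrombospondin, at −0.89. Ccn1, Tnr and Spock2 did not pass the test. The log2 fold change of Ccn1, at 34.4 ± 2.26 and 32.9 ± 1.03 TPM, was −0.03 (standard error 0.0526, edgeR adjusted p = 0.592). The CCN genes, 6 of them and all tested, thus comprised 3 that fell past both cutoffs (Ccn2, Ccn5, Ccn6), 2 that were higher (Ccn3, Ccn4) and Ccn1. Among all genes tested, 10.1% fell past both cutoffs and 40.2% rose past the first.

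**Figure D4:**
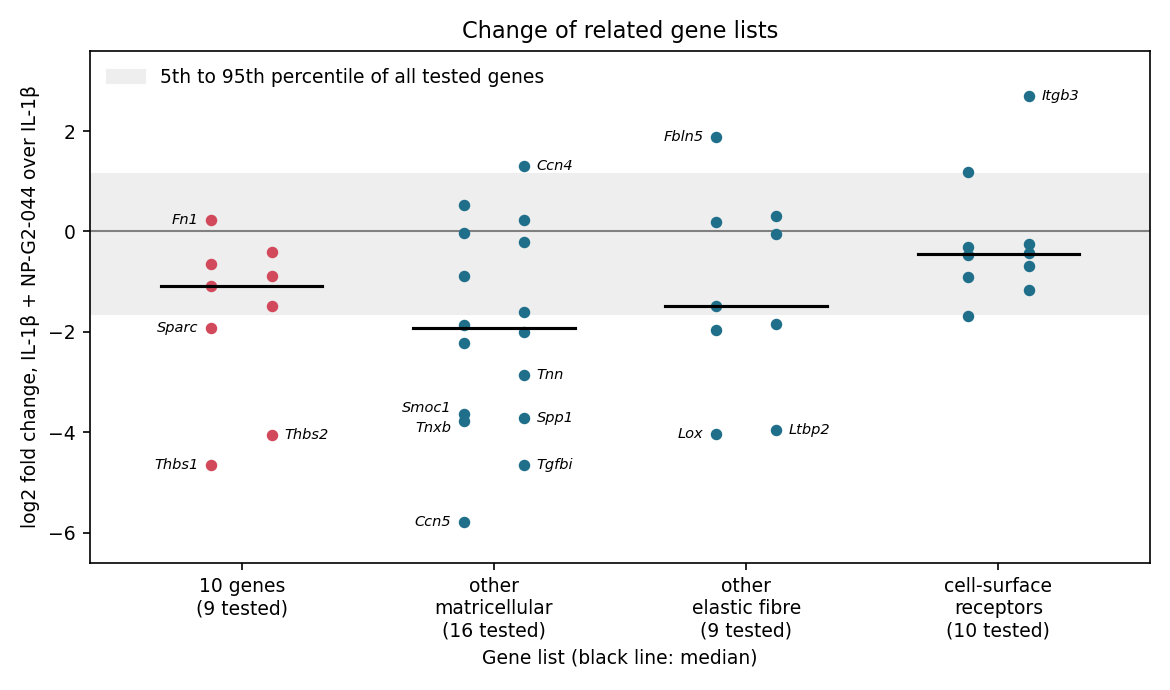
Vertical axis, log2 fold change, positive where the inhibitor group was higher, for the tested genes among the 10 (red) and in the 3 lists of relatives (blue). Points are genes, black lines medians, the grey line the median of all tested genes and the band their 5th to 95th percentile, −1.64 to 1.15. The medians of the 4 columns are −1.09, −1.93, −1.49 and −0.45, and Fbln5, Ccn4, Itgb3 and Stab1 stand above the band.

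Of the other elastic fibre genes 15 were listed and only 9 tested, since 6 had almost no reads. Lox, the lysyl oxidase that crosslinks elastin and collagen, fell from 152.7 ± 5.38 to 9.19 ± 0.606 TPM (SD, n = 3 each), or on the log2 scale −4.04 (standard error 0.0397, edgeR adjusted p = 6.48e-57). Ltbp2 and Ltbp3, of the family of latent TGF-β binding proteins that join microfibrils, fell from 16.1 to 1.01 TPM (−3.96) and from 62.5 to 17.2 TPM (−1.85). Emilin1 and Emilin2, glycoproteins of the interface of elastin and microfibrils, fell from 142.3 to 49.4 TPM (−1.49) and from 9.82 to 2.47 TPM (−1.96). In the other direction Fbln5, which encodes fibulin-5 and is, like fibulin-4, an assembly factor for elastin, rose from 4.84 ± 0.65 to 17.2 ± 0.75 TPM (SD, n = 3 each), or on the log2 scale 1.89 (standard error 0.0817, edgeR adjusted p = 1.83e-27). Ltbp1, the most abundant of the list over both groups, was at 101.2 ± 7.05 and 96.4 ± 4.16 TPM and did not pass the test (log2 fold change −0.04, standard error 0.035, edgeR adjusted p = 0.289). Ltbp4 and Loxl1 passed the first cutoff alone, at 0.19 and 0.30. The list median was −1.49. Fbn2 had no read in any library, and Fbn1 was thus the fibrillin gene that was measured.

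Among the receptors, all 14 were listed and 10 tested. Their median was −0.45, and 2 rose and 2 fell past both cutoffs, against 6.48% and 10.1% of all genes tested. Itgb1, the β1 integrin chain shared by the main fibronectin receptors, was the most abundant, with 263.7 ± 6.55 TPM against 209 ± 0.905 TPM (SD, n = 3 each), or on the log2 scale −0.30. Its partner chain for fibronectin, Itga5, changed by −0.24, Itgav by −0.43 and Itgb5 by −0.69. Sdc4, a heparan sulfate proteoglycan that acts with integrins at fibronectin contacts, fell from 61.6 ± 1.38 to 18.7 ± 1.11 TPM (SD, n = 3 each), or on the log2 scale −1.69 (standard error 0.047, edgeR adjusted p = 3.56e-36). Cd47, a thrombospondin receptor, fell from 93.2 to 41.7 TPM (−1.16). Both rises were of genes with few reads, Itgb3 with 11 reads against 77 over the groups (2.70) and Stab1, a scavenger receptor for SPARC, with 14 against 34 (1.19). The call of Itgb3 was lost with limma on log2(TPM + 1) and when 10 CPM or more was required in 3 libraries. That of Stab1 was lost there too, and also under DESeq2 and without replicate 1 of the IL-1β libraries. Limma on log2(TPM + 0.1) and the edgeR test against a fold of 2 lost the Stab1 call as well. Cd36, the other classical thrombospondin receptor, had 1 read in all, so that no level could be given. Sdc2 and Lrp1, the latter a clearance receptor for thrombospondins, passed the first cutoff alone at −0.46 and −0.91.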

How the data were processed

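From ATDC5 cells 3 libraries were sequenced per group, with the inhibitor added to IL-1β in one of them. The deposited expected counts are the authors' estimates of reads per gene, not normalized, of which 10.17% to 11.06% per library are not whole, and the authors also deposited TPM and FPKM for each library. The submitters' processing notes name cutadapt, HISAT2 2.0, StringTie and mm10 without roles, and neither annotation nor use of strand is stated there. Of the deposited columns, FPKM and group means were left aside.

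Counts were rounded, passed through filterByExpr (min.count of 10), scaled by TMM and compared without covariates by edgeR 4.0.16 (glmQLFit, robust; glmQLFTest) in R 4.3.3, with Benjamini-Hochberg adjustment over 11983 genes. TMM factors were 0.997 to 1.002 and the common biological coefficient of variation was 2.33%. The standard error is the log2 fold change over the square root of F. The steps were tested on simulated counts with 200 changed genes and a common spread for all genes. In these data 1987 genes passed both cutoffs, so that check does not cover their setting. Members, lists and tests were chosen with earlier results of these data known. All 10 members are named, with the called and the 2 most abundant genes of each further list, Fscn1, and the 3 nearest profiles of the most abundant member and of the largest rise and fall. Gene positions are GENCODE vM21. Alternatives were DESeq2 1.42.0, limma 3.58.1, other normalizations and filters, a test against a fold of 2, a replicate block and leaving out each library.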

Additional observations from a re-analysis of the deposited data

How the results depend on the processing

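None of the 9 tested member genes changed direction under any of the alternatives run, and 138 of 143 member values stayed on the same side of an adjusted p of 0.05. The 5 exceptions all came from testing against a fold change of 2 in edgeR, which by construction asks for a larger change. There Fn1, Fbn1, Fbln2 and Efemp2 had an adjusted p of 1 and Postn one of 0.406, which left 4 members with an adjusted p below 0.05, all of them lower. On log2(TPM + 1) limma put 3 members past both cutoffs, all lower, with Tnc and Postn falling short. Over all genes, the same fit called 1316 genes, 514 higher and 802 lower, and requiring 10 CPM or more in 3 libraries, which tests fewer genes, gave 1164, of which 484 were higher and 680 lower, against 1987, 776 and 1211 in the report. That requirement removed Tnc and left 4 members past both cutoffs. When single libraries were left out, 5 members passed both cutoffs every time and 9 the first, and 2025 to 2071 genes were called. No other normalization moved the median log2 fold change of all genes by more than 0.1. The deviations of libraries of the same number correlated at −0.093, −0.024 and 0.026, within the −0.107 to 0.129 of libraries of different numbers. No pairing by replicate number was thus seen, but with 3 libraries per group this check cannot exclude one. With the replicate number as a block, 1984 genes and 5 members were past both cutoffs, 9 members were past the first, and 21 genes of the 3 other lists were called, as in the report, against 15 when 10 CPM was required and 16 on log2(TPM + 1). Depth limits Eln, Tnc and the relatives with few reads.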
